A study of Arabidopsis thaliana with 30 samples.

Results

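Aquaporins are membrane channels that let water and, in some members, small solutes pass, and Arabidopsis carries them in 4 branches. The 35 genes described here were taken by gene identifier from the 37051 genes of the deposited count table, and comprise 5 PIP1, 8 PIP2, 10 TIP, 9 NIP and 3 SIP genes.

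Transcripts were sequenced from sorted nuclei of the second bottom-most internode of the inflorescence stem of soil-grown Col-0 plants. Every library came from a line expressing histone H4 fused to GFP (H4-GFP), with the promoter of this transgene, and for several lines also its terminator, taken from the gene that names the line. GFP-positive nuclei represented fibers (NST3pro:H4-GFP), differentiating vessel elements (VND7pro:H4-GFP), proximal cambium with differentiating xylem (PXYpro:H4-GFP), distal cambium with differentiating phloem (SMXL5pro:H4-GFP), differentiated phloem (APLpro:H4-GFP), the starch sheath (SCRpro:H4-GFP) and the epidermis (LTP1pro:H4-GFP). GFP-negative nuclei, that is, nuclei of all remaining tissues, were available for the NST3pro, SMXL5pro and APLpro lines. A tissue is therefore defined here by where one promoter is active, and nuclei were pooled from 15000 sorting events per library, apart from 10800 in LTP1pro replicate 21. Whether replicates came from separate plants or harvests is not given in the labels, so p-values measure the spread between libraries, which may be partly technical.

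Plasma membrane intrinsic proteins (PIPs) carry water across the plasma membrane, where PIP1 proteins mostly need a PIP2 partner to arrive. Tonoplast intrinsic proteins (TIPs) do so for the vacuolar membrane, and large central vacuoles make them prominent in expanding and parenchymatic cells. NOD26-like intrinsic proteins (NIPs) conduct solutes such as boric acid rather than much water, and small basic intrinsic proteins (SIPs) sit in the endoplasmic reticulum. In stems, aquaporins are best known from tissues around the vascular bundles and from cells that exchange water with xylem and phloem.

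All aquaporins fold a pair of short loops, each built around the residues Asn-Pro-Ala (NPA), into the pore. Of the 35 genes, 27 encoded NPA in both boxes, namely all PIP and TIP genes and the 4 NIP genes NIP2;1, NIP3;1, NIP4;1 and NIP4;2. The 27 bases of coding sequence around the first box are shown for 4 PIP and TIP genes with clear tissue patterns below and for NIP5;1 and SIP1;1, the NIP and SIP genes that differed among tissues by edgeR, in both of which the box departs from NPA. They were read from RefSeq gene models on the TAIR10.1 assembly, 5′ to 3′ along the gene's own strand, with the codons of the box in capitals.
PIP2;1: ggtcacattAACCCAGCGgtgacattt
PIP2;6: ggacacatcAATCCCGCGgtgacgttt
PIP2;4: ggtcatataAATCCGGCTgtgacggtg
TIP2;1: ggccatgtgAACCCAGCCgtcactttt
NIP5;1: gctcacctaAACCCATCActgaccata
SIP1;1: gctagcttcAATCCTACCggaagcgct
The positions are chr3:19804651-19804677 (minus strand) for PIP2;1, chr2:16292375-16292401 (plus strand) for PIP2;6, chr5:24376405-24376431 (minus strand) for PIP2;4, chr3:5505874-5505900 (plus strand) for TIP2;1, chr4:6432360-6432386 (minus strand) for NIP5;1 and chr3:1073807-1073833 (minus strand) for SIP1;1, each within a coding exon. The boric acid channel NIP5;1 encoded Asn-Pro-Ser in the first box and Asn-Pro-Val in the second, where its sequence is shown next.
NIP5;1 second box: ggatctatgAATCCTGTGagaactcta
The latter lies at chr4:6431686-6431712 (minus strand). In SIP1;1 the first box read Asn-Pro-Thr.

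Close relatives limit how well single members can be told apart. In 12 pairs of members, drawn from 12 genes, the encoded proteins were at least 90% identical, up to 97.6% for PIP1;3 and PIP1;4 and 96.8% for PIP2;2 and PIP2;3. The last pair lies side by side on chromosome 2, and 24.0% and 26.2% of their 50-base windows occurred in the other gene, so that uniquely aligned reads came from the rest of each gene. Other PIP1, PIP2 and TIP genes shared no such window with any gene. Strand was ignored in the counting, and genes on the opposite strand covered 33.4% of TIP2;1 and 95.3% of NIP2;1, where reads could not be assigned. In a 60-base stretch where PIP2;2 and PIP2;3 differ most, 10 bases (capitals) distinguish them.
PIP2;2: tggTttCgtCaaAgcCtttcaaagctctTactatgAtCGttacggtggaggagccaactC
PIP2;3: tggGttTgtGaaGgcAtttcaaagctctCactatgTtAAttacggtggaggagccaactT
These stretches lie at chr2:15614198-15614257 (minus strand) and chr2:15618313-15618372 (plus strand) of TAIR10.1.

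The 30 libraries held between 725545 and 18335693 reads on annotated genes. Tissues were compared with 17 GFP-positive libraries of 1918733 to 18299284 reads, after leaving out replicates 2 (NST3pro), 6 (VND7pro), 15 (APLpro) and 19 (LTP1pro) as the study did. The study picked these as outliers from clustering of the same data and from genes at odds with their known profiles. It cautioned that calling a single replicate an outlier has weak statistical support. Spreads and p-values of the kept libraries depend on this choice. Driver genes and tissue markers were highest in the labelled tissue, with the exception of LTP1 itself, whose mean normalized read count was 25.9 in LTP1pro and 67.7 in VND7pro nuclei, although the epidermal wax gene CER6 was highest in LTP1pro with 629. Reads on the 3903 pseudogenes, which should largely be silent, made up 1.01 to 2.24% of the kept NST3pro, VND7pro, PXYpro and SCRpro libraries but 3.49 to 6.52% of the kept APLpro, LTP1pro and SMXL5pro libraries. If every gene carried this read density over its length, it would make up 8.38 to 18.6% of all reads in the former tissues. In the latter it would make up 29.0 to 39.4% (APLpro), 36.6 to 37.9% (LTP1pro) and 39.7 to 54.1% (SMXL5pro). Shares of all reads given below are not corrected for it. The part of this background in the results below was not tested, apart from repeating the tissue tests after subtracting it.

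Aquaporin transcripts differed strongly among the 7 tissues, with the starch sheath at the upper and the distal cambium at the lower end. Reads on the 35 genes made up 0.606% ± 0.0906 (SD, n = 3) of all reads in SCRpro, 0.389% ± 0.0661 (n = 2) in APLpro, 0.357% ± 0.0071 (n = 2) in VND7pro, 0.323% ± 0.0058 (n = 2) in NST3pro and 0.319% ± 0.0137 (n = 3) in PXYpro libraries. They reached only 0.146% ± 0.0056 (n = 2) in LTP1pro and 0.126% ± 0.0092 (n = 3) in SMXL5pro libraries. The SCRpro libraries, at 0.531 to 0.707%, lay above all other kept GFP-positive libraries. GFP-negative nuclei of the APLpro line reached 0.402 to 0.588%, and none were available for the SCRpro line. Whether the tissue or the line carries the SCRpro level was not tested. Among the 4 libraries left out, the share was 0.130% in APLpro replicate 15, against 0.342 to 0.436% in the kept APLpro libraries, 0.201% in NST3pro replicate 2, 0.276% in VND7pro replicate 6 and 0.187% in LTP1pro replicate 19. It was thus below the kept libraries of the same tissue in the first 3 and above them in the last. In these pooled nuclei, fewer cells of a type and less RNA per cell cannot be told apart.

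**Figure D1:**
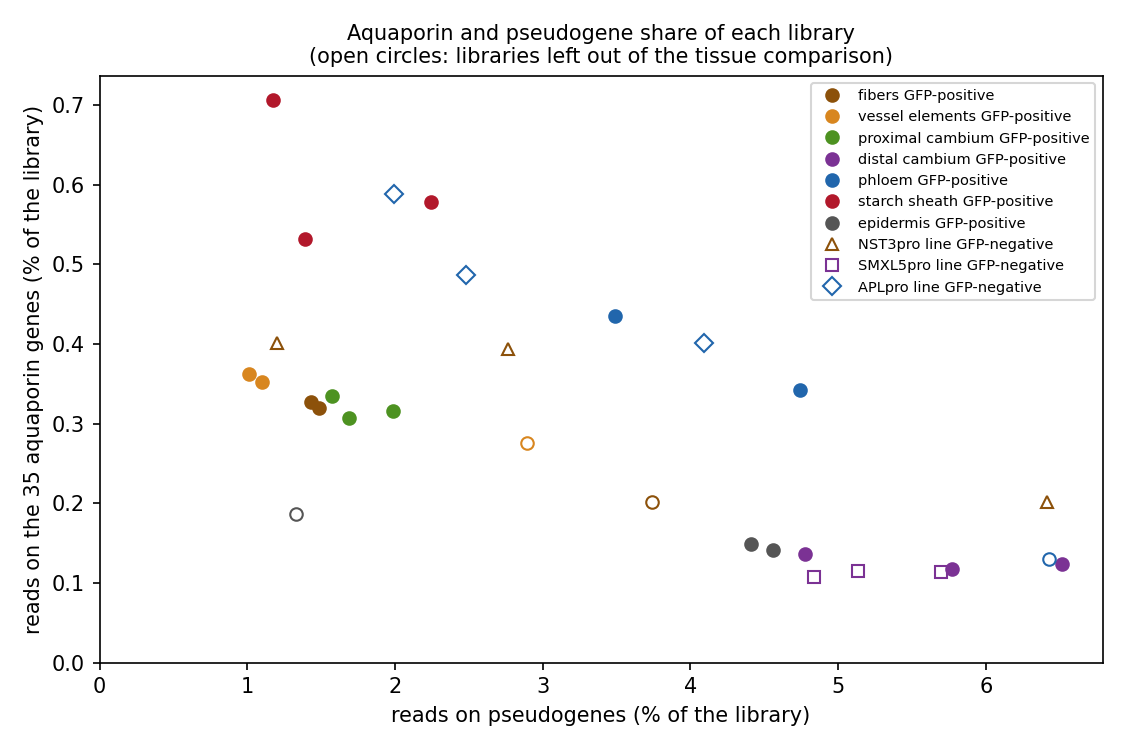
Reads on the 35 aquaporin genes (y axis, % of the library) against reads on pseudogenes (x axis, % of the library) for each of the 30 libraries, coloured by line, with open circles for the 4 GFP-positive libraries left out and other open symbols for GFP-negative nuclei. The starch sheath libraries lie at 0.531 to 0.707%, and all 6 libraries of the SMXL5pro line lie at 0.136% or less with pseudogene shares of 4.78% or more.

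All 35 genes passed the filter on low counts. At an adjusted p of 0.01 in edgeR's quasi-likelihood test, 17 of them (all 5 PIP1, 6 of 8 PIP2, 4 of 10 TIP, 1 of 9 NIP and 1 of 3 SIP genes) differed among the 7 tissues, against 26.1% of all genes tested. This difference in share goes with transcript level, since 98% of the 1883 genes averaging at least 100 normalized read counts differed, as did all 11 aquaporins of that level. Normalized read counts are CPM on TMM-scaled library sizes. The group with the highest mean was SCRpro for 10 of the 17, VND7pro for 4, NST3pro for 2 and SMXL5pro for 1. Scaled by gene length, TIP1;2 had the highest mean over the 7 tissues with 306 normalized read counts per kilobase, followed by PIP2;1 with 259.7 and PIP1;5 with 258.

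**Figure D2:**
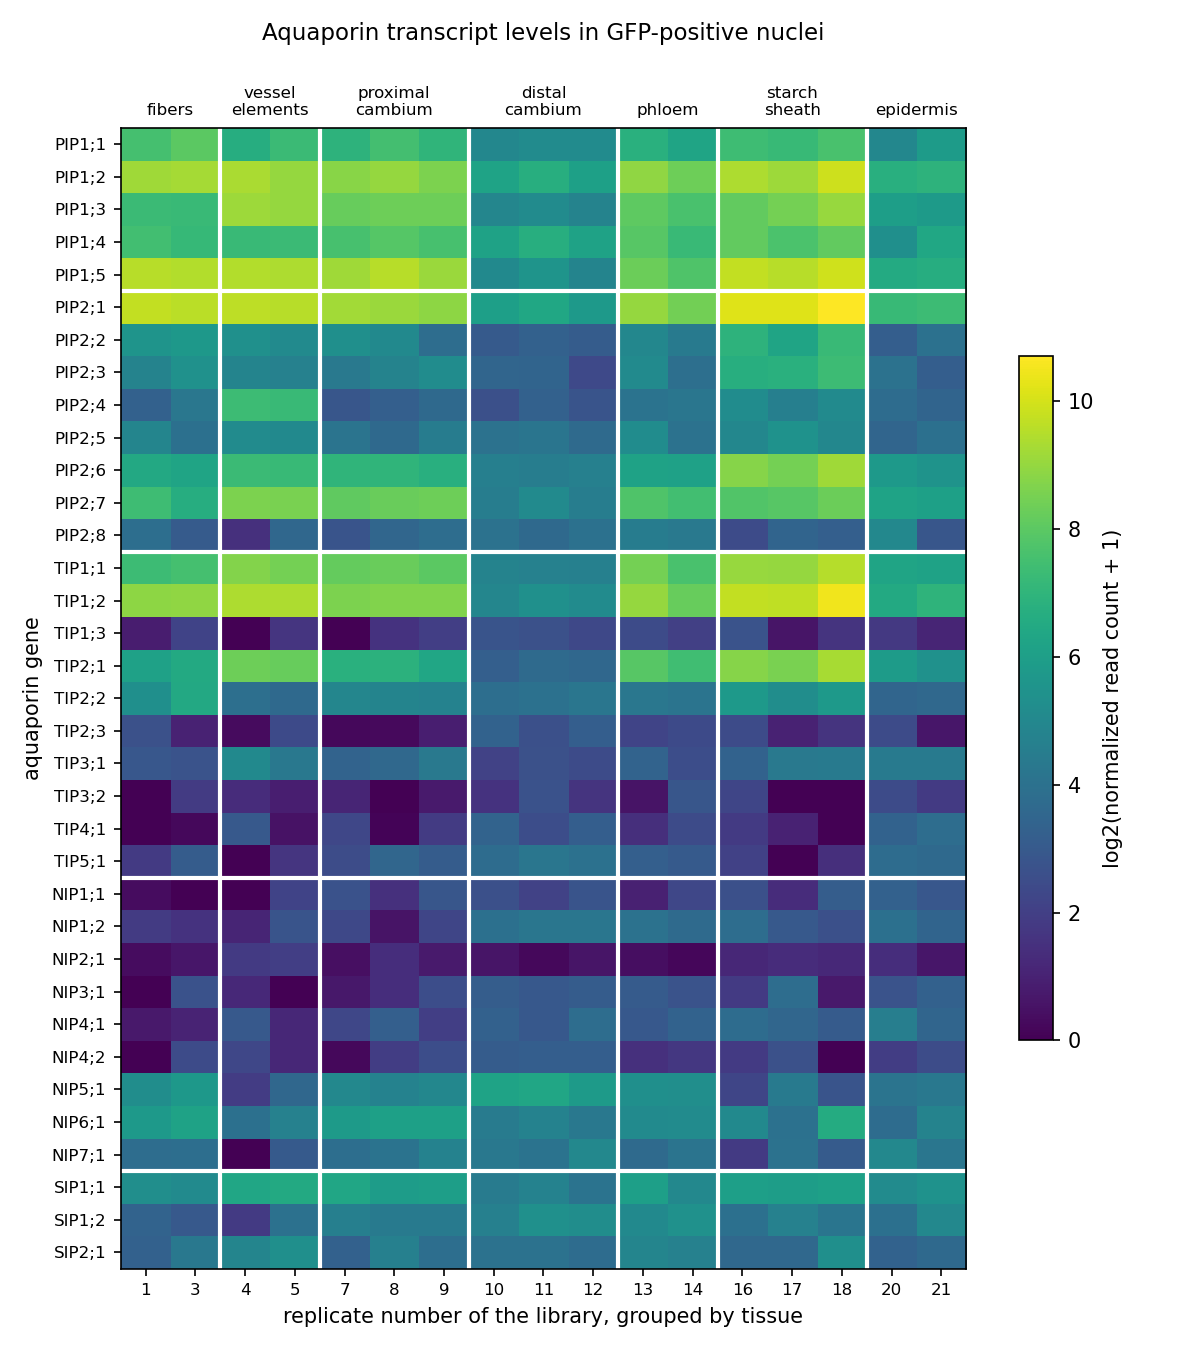
Level of each of the 35 aquaporins (rows, ordered by branch) in the 17 kept GFP-positive libraries (columns, by replicate number within each tissue), as log2 of the normalized read count plus 1. The PIP1, PIP2 and TIP genes with high levels, such as PIP2;1 with up to 1673 normalized read counts, are dark in the distal cambium and bright in the starch sheath.

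Among the PIP1 genes, which encode plasma membrane channels that depend on PIP2 partners, all 5 differed among tissues. PIP1;5 (AT4G23400) counts were 756 and 704 in the NST3pro libraries, 703 and 667 in VND7pro, 579, 764 and 546 in PXYpro, 33.3, 46.3 and 27.8 in SMXL5pro, 315 and 216 in APLpro, 851, 754 and 984 in SCRpro, and 93.8 and 102 in LTP1pro (adjusted p = 6.8e-11). The gene was thus high in all xylem-side tissues and the starch sheath, whose libraries overlapped, and lowest in the distal cambium, where its mean was 24.1-fold below that of the starch sheath. For PIP1;3 (AT1G01620) the values were 158 and 152 in NST3pro, 558 and 514 in VND7pro, 299, 323 and 328 in PXYpro, 29.3, 34.9 and 26.7 in SMXL5pro, 268 and 195 in APLpro, 282, 352 and 537 in SCRpro, and 62.3 and 56.4 in LTP1pro (adjusted p = 3.6e-10). Vessel elements had the highest mean here, but the step to the starch sheath did not pass (adjusted p = 0.22).

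PIP1;2 (AT2G45960) was broadly present, with 582 and 616 in NST3pro, 644 and 517 in VND7pro, 448, 519 and 391 in PXYpro, 73.8, 105 and 67.6 in SMXL5pro, 486 and 328 in APLpro, 663, 567 and 953 in SCRpro, and 108 and 122 in LTP1pro (adjusted p = 1.1e-08). Its 5 highest tissues formed an unbroken series in which no step to the next tissue passed, and only the distal cambium and the epidermis stood clearly below. PIP1;1 (AT3G61430) gave 185 and 254 in NST3pro, 101 and 158 in VND7pro, 119.5, 183 and 129 in PXYpro, 30.2, 34.9 and 34.8 in SMXL5pro, 110.0 and 75.0 in APLpro, 164, 149 and 199 in SCRpro, and 29.9 and 57.8 in LTP1pro (adjusted p = 1.0e-06). It was one of only 2 aquaporins with the highest mean in fibers, although the step from fibers to the starch sheath did not pass (adjusted p = 0.43). PIP1;4 (AT4G00430) ranged from 39.6 in LTP1pro to 284 in SCRpro libraries (adjusted p = 5.2e-05).

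PIP2 proteins form water channels on their own, and the branch held both the gene with the most reads and the genes most restricted to one tissue. PIP2;1 (AT3G53420), a major water channel of the plasma membrane, had 835 and 783 in NST3pro, 798 and 745 in VND7pro, 589, 543 and 478 in PXYpro, 64.9, 81.2 and 54.3 in SMXL5pro, 522 and 344 in APLpro, 1173, 1154 and 1673 in SCRpro, and 148 and 160.0 in LTP1pro (adjusted p = 1.7e-10). All starch sheath libraries exceeded every other kept library, although the step to fibers did not pass the threshold (adjusted p = 0.040). PIP2;6 (AT2G39010) amounted to 88.0 and 75.4 in NST3pro, 158 and 148 in VND7pro, 128, 129 and 107 in PXYpro, 23.3, 22.5 and 24.6 in SMXL5pro, 72.0 and 69.6 in APLpro, 431, 353 and 577 in SCRpro, and 53.0 and 44.9 in LTP1pro (adjusted p = 3.8e-11). Here the starch sheath mean of 454 ± 113 (SD, n = 3) differed from the next tissue, vessel elements with 153 ± 6.90 (n = 2; adjusted p = 4.2e-05). PIP2;6 had the lowest p of all aquaporins in the comparison among tissues.

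PIP2;4 (AT5G60660) was the aquaporin most restricted to vessel elements. It reached 163 and 151 in VND7pro, but only 8.97 and 17.7 in NST3pro, 6.33, 8.46 and 11.6 in PXYpro, 5.16, 8.95 and 5.80 in SMXL5pro, 16.0 and 17.5 in APLpro, 35.9, 23.9 and 33.9 in SCRpro, and 12.9 and 10.0 in LTP1pro (adjusted p = 6.3e-09). The VND7pro mean of 157 ± 8.18 (n = 2) exceeded that of the starch sheath, next in order with 31.2 ± 6.44 (n = 3), with an adjusted p of 0.00011. In SMXL5pro, 2 of 3 libraries were at or below the count that their pseudogene reads would give a gene of this length. PIP2;7 (AT4G35100), whose protein resembles that of PIP2;8, had 167 and 102 in NST3pro, 383 and 376 in VND7pro, 272, 303 and 321 in PXYpro, 22.4, 34.1 and 22.4 in SMXL5pro, 218 and 177 in APLpro, 222, 245 and 317 in SCRpro, and 72.8 and 66.1 in LTP1pro (adjusted p = 2.0e-09). Vessel elements, proximal cambium and starch sheath formed its upper end, and no step between them passed.

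The near-identical neighbours PIP2;2 and PIP2;3 both peaked in the starch sheath. PIP2;2 (AT2G37170) had 45.1 and 52.0 in NST3pro, 40.4 and 34.1 in VND7pro, 39.2, 32.5 and 13.1 in PXYpro, 7.11, 8.95 and 7.76 in SMXL5pro, 30.4 and 19.8 in APLpro, 121, 74.8 and 153 in SCRpro, and 8.09 and 15.2 in LTP1pro (adjusted p = 8.6e-07). PIP2;3 (AT2G37180) averaged 125 ± 30.9 (n = 3) in SCRpro and 34.2 ± 10.8 (n = 2) in NST3pro, the next tissue, and these differed (adjusted p = 0.0062). The step from the starch sheath to fibers did not pass for PIP2;2 (adjusted p = 0.038), but the libraries of the starch sheath lay above all others for both genes.

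**Figure D3:**
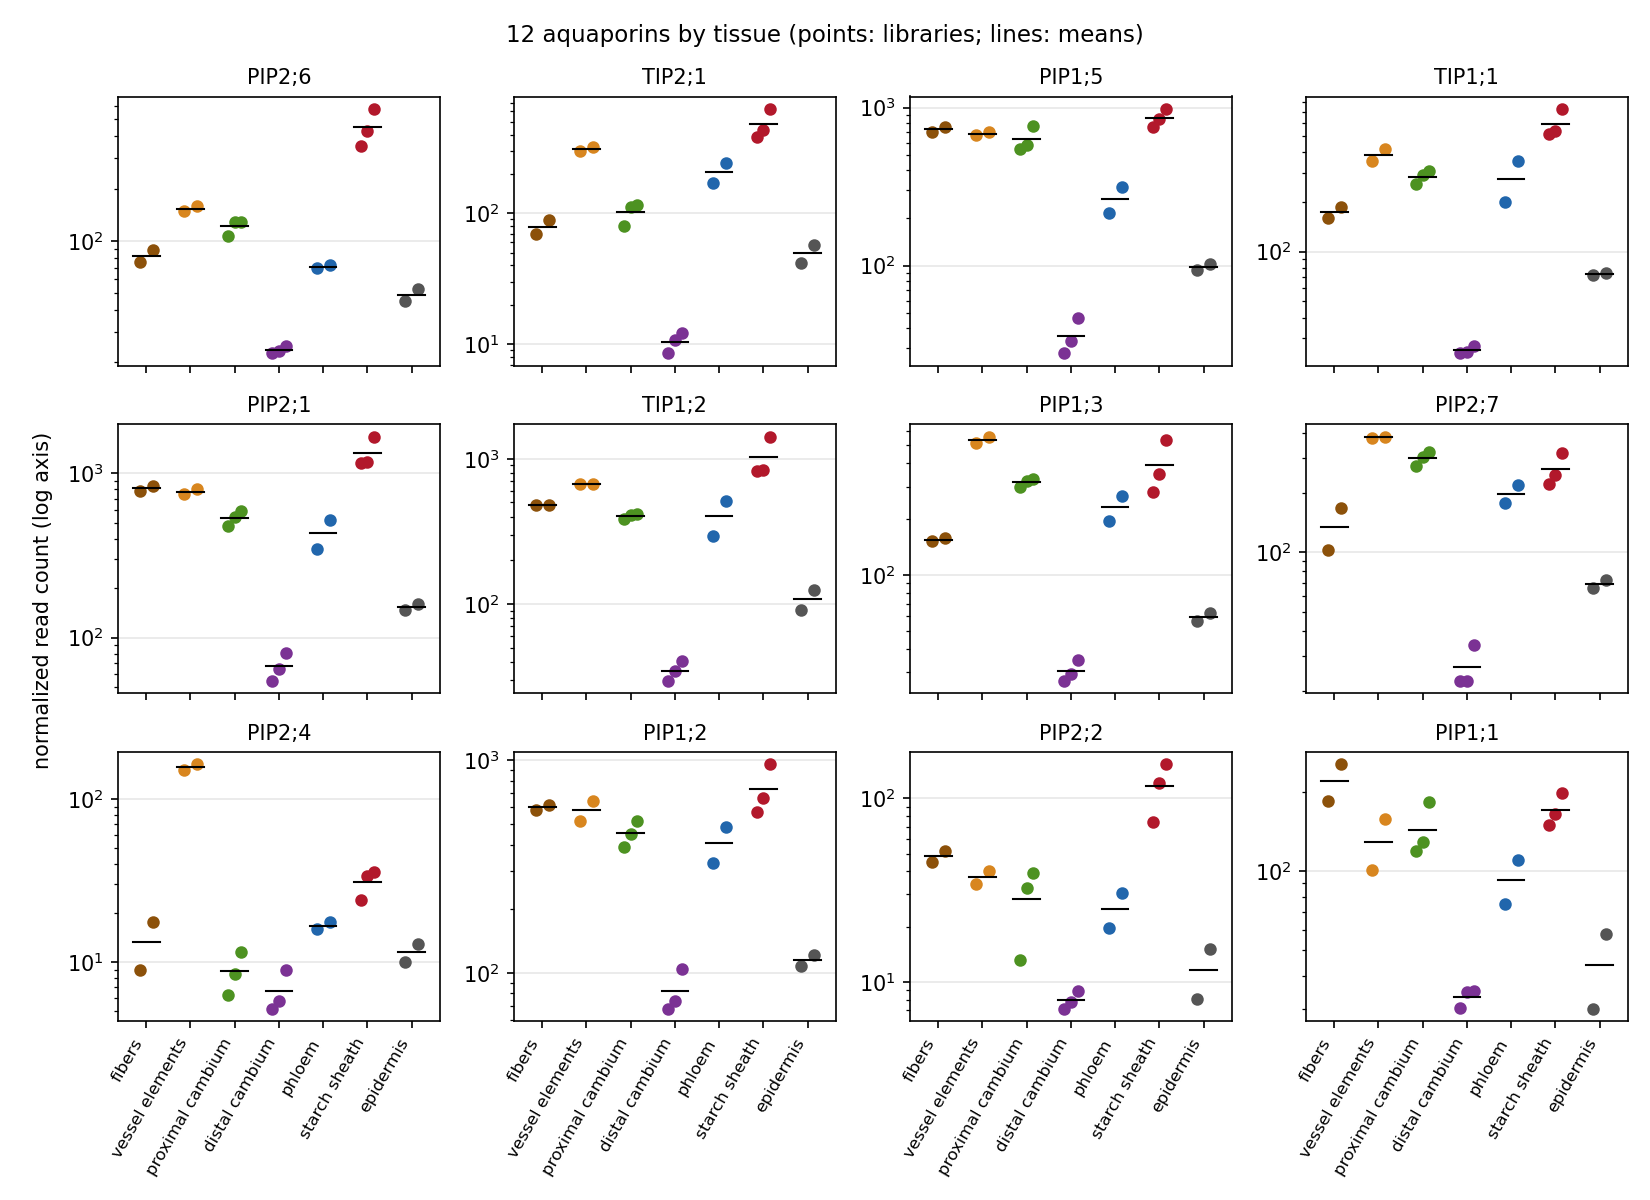
Normalized read counts (log axis) of the 12 aquaporins with the lowest p among tissues in the 7 tissues, with a point for each of the 17 kept libraries and a line at the mean. The highest mean is that of the vessel elements for PIP2;4 (163 and 151), PIP1;3 and PIP2;7, of fibers for PIP1;1 and of the starch sheath in the other panels, and the distal cambium has the lowest mean in all 12.

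TIP genes encode the water channels of the vacuolar membrane, and TIP1;1, TIP1;2 and TIP2;1 shared one pattern. TIP2;1 (AT3G16240), which also conducts ammonia, had 69.5 and 88.6 in NST3pro, 321 and 299.9 in VND7pro, 112, 116 and 80.5 in PXYpro, 8.54, 12.2 and 10.8 in SMXL5pro, 244 and 169.9 in APLpro, 430.4, 380.0 and 629 in SCRpro, and 57.8 and 41.5 in LTP1pro (adjusted p = 5.1e-11). Its mean was 45.8-fold higher in the starch sheath than in the distal cambium, the widest span of the 17 genes, and differentiated phloem exceeded the next tissue, proximal cambium (adjusted p = 0.00996). TIP1;1 (AT2G36830) had 159.8 and 186 in NST3pro, 417 and 354 in VND7pro, 289, 306 and 256 in PXYpro, 27.0, 24.8 and 24.3 in SMXL5pro, 351 and 201 in APLpro, 536, 510.1 and 728 in SCRpro, and 74.4 and 71.9 in LTP1pro (adjusted p = 1.3e-10). Again the starch sheath libraries were above all others, though vessel elements came close (adjusted p = 0.087).

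TIP1;2 (AT3G26520) followed with 479 and 484 in NST3pro, 674 and 671 in VND7pro, 382, 414 and 412 in PXYpro, 29.3, 40.2 and 34.6 in SMXL5pro, 514 and 293 in APLpro, 844, 826 and 1423 in SCRpro, and 90.2 and 126 in LTP1pro (adjusted p = 3.1e-10). Every library of the 5 upper tissues lay above those of the epidermis and the distal cambium. TIP2;2 (AT4G17340), a relative of TIP2;1, behaved differently, since its highest mean was in fibers (63.3 ± 34.2, n = 2), followed by the starch sheath (48.1 ± 9.56, n = 3), and the step between both did not pass (adjusted p = 0.50). Its fiber libraries, at 39.1 and 87.5, differed widely from each other. The TIP3 genes, known from seeds, and TIP1;3 and TIP5;1, known from pollen, did not pass in edgeR.

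Of the NIP genes, NIP5;1 (AT4G10380), a boric acid channel needed for boron uptake when boron is scarce, differed among tissues by edgeR (adjusted p = 0.00018), whereas DESeq2 also called NIP1;2 and NIP4;1. Its order ran against that of most water channels. It averaged 70.1 ± 12.8 (n = 3) in SMXL5pro, 44.1 ± 10.5 (n = 2) in NST3pro, 38.9 ± 0.896 (n = 2) in APLpro, 28.8 ± 2.78 (n = 3) in PXYpro, 17.4 ± 1.72 (n = 2) in LTP1pro, 9.92 ± 8.93 (n = 3) in SCRpro and 6.92 ± 5.91 (n = 2) in VND7pro nuclei. No step between neighbours in this order passed, but the 3 SMXL5pro libraries, at 55.9 to 80.7, lay above all other kept libraries. The counts of vessel elements and starch sheath were near the 6.97 and 8.25 that pseudogene reads would give. The ER channel gene SIP1;1 (AT3G04090) ranged from 15.7 in SMXL5pro to 90.4 in VND7pro (adjusted p = 0.00020), with a mean of 85.4 ± 7.13 (n = 2) in the latter.

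The 18 remaining genes did not pass in edgeR. DESeq2 called 23 aquaporins among tissues, which were the 17 and TIP3;1, TIP4;1, TIP5;1, NIP1;2, NIP4;1 and SIP1;2. Means of the 18 over the tissues ranged from 1.03 to 38.3 normalized read counts with a median of 7.51, and 11 of the 18 stayed below 10. The 17 that differed by edgeR averaged between 27.8 and 586. Of the 18, 8 had a library without any read. The highest among them was NIP6;1, a boric acid channel of stem nodes, with 12.9 to 94.4 and the highest mean in PXYpro (63.4). Its 3 starch sheath libraries held both low and high counts, with a mean of 47.3 ± 41.7 (SD, n = 3). The plasma membrane channel genes PIP2;5 and PIP2;8 averaged 22.8 and 12.5, and the ER channel genes SIP1;2 and SIP2;1 averaged 21.6 and 19.3. The other 13 were TIP1;3, TIP2;3, TIP3;1, TIP3;2, TIP4;1, TIP5;1, NIP1;1, NIP1;2, NIP2;1, NIP3;1, NIP4;1, NIP4;2 and NIP7;1, with means of 14.9 or less. In each tissue, between 2 and 6 of the 18 were at or below the level of pseudogene reads in all libraries.

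The starch sheath is the innermost cortex layer around the vascular bundles and stores starch. With the mean of the other 6 tissues as reference, 14 of the 35 aquaporins were higher there, against 6.36% of all genes tested. They comprised all 5 PIP1 genes, 5 PIP2 genes and 4 TIP genes, and all 11 aquaporins averaging at least 100 were among them, against 40.2% of all genes of that level. The log2 fold change was 2.68 ± 0.13 (SE, adjusted p = 4.4e-12) for PIP2;6, 2.68 ± 0.26 (adjusted p = 1.3e-07) for PIP2;3 and 2.58 ± 0.16 (adjusted p = 1.2e-10) for TIP2;1. PIP1;1, with 0.92 ± 0.19 (adjusted p = 0.0021), showed the smallest difference that passed. The median over all 35 genes was 0.88, against -0.04 over all genes tested. For 7 of the 35 every starch sheath library exceeded every other kept library, against 2.45% of all genes tested, and among those averaging at least 100 this held for 5 of 11, against 11.3% of all genes of that level. The level was averaged over the 17 libraries, the starch sheath included. PIP2;6 may have reached it only there, with a mean of 454 against 153 or less in the other tissues. The counts at that level are therefore no independent support. With all 21 libraries 8 aquaporins differed, and 7 when only the 4 tissues with few pseudogene reads were compared. Markers of green parenchyma summed to 1999 to 2882 normalized read counts in SCRpro, above all tissues but fibers (4714 to 5366), and their part in the result was not tested.

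In the distal cambium, a tissue of dividing and early phloem cells, 15 aquaporins were lower than the mean of the other 6 tissues (11.4% of all genes tested were lower) and NIP5;1 was higher (2.13% were higher). The 15 were all 5 PIP1 genes, 6 PIP2 genes, 3 TIP genes and SIP1;1. TIP2;1 changed most with a log2 fold change of -3.86 ± 0.25 (SE, adjusted p = 1.0e-09), PIP1;5 had -3.62 ± 0.22 (adjusted p = 5.1e-10) and PIP2;1 -3.06 ± 0.20 (adjusted p = 1.5e-09), while NIP5;1 had 1.84 ± 0.31 (adjusted p = 0.00013). All 11 aquaporins averaging at least 100 were lower, but so were 82.2% of the genes of that level, and the medians were -2.91 and -1.37, respectively. For 10 of the 35 genes, every SMXL5pro library was below every other kept library (3.56% of all genes tested), and for 9 of the 11 averaging at least 100 (31.5% of all genes of that level). Of the 15 lower genes, 11 were also lower in GFP-negative SMXL5pro nuclei against those of both other lines, as described below. Whether the tissue or the line carries the difference was not tested. NIP genes together took 0.0256% ± 0.0011 (SD, n = 3) of the reads, against group means of 0.0031 to 0.0150% in the other tissues. GFP-negative nuclei of the SMXL5pro line held 0.0283% ± 0.0047 (n = 3). Of the 9 NIP genes only NIP5;1 passed, and the part of pseudogene reads in this share was not tested.

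Pseudogene reads made up 4.78 to 6.52% of these SMXL5pro libraries, more than in any other kept library. After subtraction of the count that pseudogene reads would give each gene, the log2 fold changes were -4.32 for TIP2;1, -2.17 for PIP2;6 and 3.77 for NIP5;1, all past the threshold. Measured counts were above this level in most cases. PIP2;1 averaged 66.8 against 8.51 of background and TIP2;1 10.5 against 6.37. With all 21 libraries, 12 aquaporins differed in SMXL5pro nuclei.

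**Figure D4:**
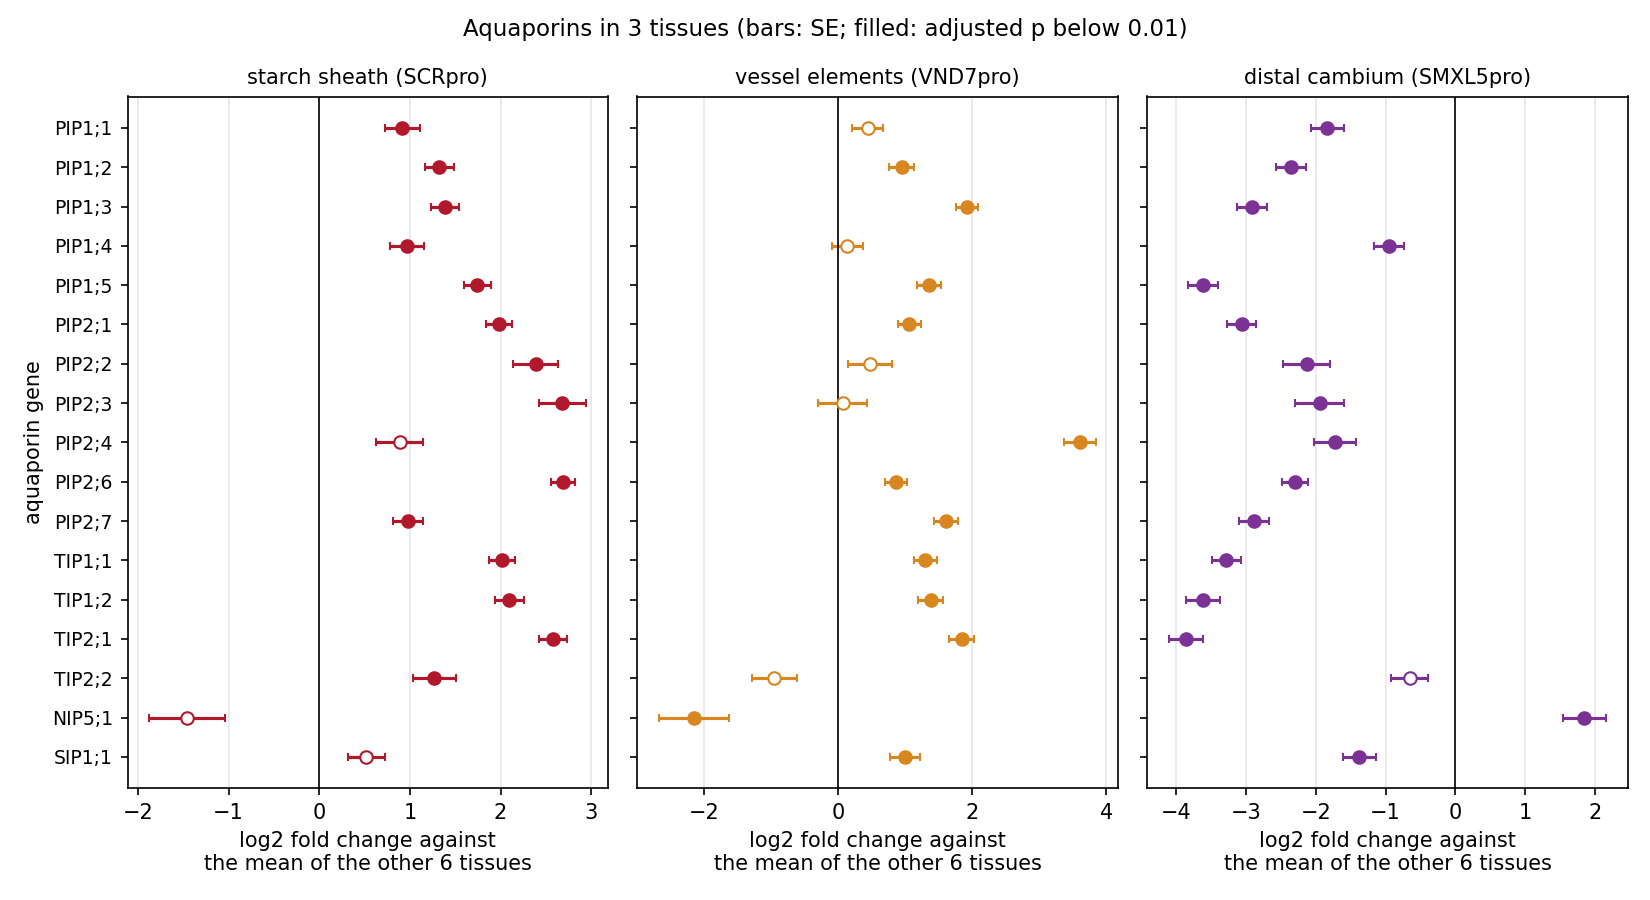
Log2 fold change against the mean of the other 6 tissues (x axis, bars: SE) of the 17 aquaporins that differed among tissues, in the starch sheath, vessel elements and distal cambium, with filled points past an adjusted p of 0.01. Of these genes 14 are higher in the starch sheath, and NIP5;1 lies opposite to nearly all others in the distal cambium (1.84) and in vessel elements (-2.15).

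The epidermis, which bounds the stem, shared the low level of water channels. In LTP1pro nuclei 11 aquaporins were lower than in the other 6 tissues (6.12% of all genes tested were lower), and these were exactly the 11 averaging at least 100, against 46.4% of all genes of that level. Log2 fold changes ran from -1.92 ± 0.23 (SE, adjusted p = 7.4e-06) for PIP1;5 to -1.07 ± 0.20 (adjusted p = 0.00089) for PIP2;6. Levels nevertheless exceeded those of the distal cambium for several genes, such as TIP2;1 with 49.7 against 10.5 on average (adjusted p = 1.1e-05). The result rested on 2 libraries. Without replicate 20 the count was 5. With all 21 libraries it was 0 by edgeR, with 10 at an unadjusted p of 0.05 (19.6% of all genes tested), and the left-out replicate 19 had 328 normalized read counts of PIP2;1 where replicates 20 and 21 had 150.4 and 162 on the same scale. Pseudogene reads made up 4.41 to 4.56% of the kept libraries, and their part was not tested beyond the subtraction, which left 7.

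Vessel elements are cells that form the water-conducting tubes of the xylem and die at maturity. Of the 35 aquaporins 11 were higher in VND7pro nuclei (10.3% of all genes tested were higher) and NIP5;1 was lower (2.05% were lower). PIP2;4 stood out with a log2 fold change of 3.61 ± 0.24 (SE, adjusted p = 3.4e-10), ahead of PIP1;3 with 1.92 ± 0.17 (adjusted p = 2.4e-08), TIP2;1 with 1.84 ± 0.19 (adjusted p = 1.7e-07) and PIP2;7 with 1.60 ± 0.18 (adjusted p = 6.8e-07). NIP5;1 had -2.15 ± 0.52 (adjusted p = 0.0049). Of the 11 aquaporins averaging at least 100, 9 were higher, against 55.5% of all genes of that level. Without replicate 4 or after background subtraction the total of 12 became 7, among the 4 tissues with few pseudogene reads it was 4, and with all 21 libraries only 1 difference passed, that of PIP2;4.

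Fibers, which strengthen the stem by thick walls, had 6 aquaporins above the mean of the other tissues, against 8.76% of all genes tested. They were PIP1;1, PIP1;2, PIP1;5, PIP2;1, TIP1;2 and TIP2;2. TIP2;2 led with a log2 fold change of 1.73 ± 0.26 (SE, adjusted p = 4.4e-05), followed by PIP1;5 with 1.46 ± 0.17 (adjusted p = 2.5e-06). Of the aquaporins averaging at least 100, 5 of 11 were higher, close to the 47.4% of all genes of that level. Without replicate 3 the count was 2, and with all 21 libraries it was 0 by edgeR, with 8 at an unadjusted p of 0.05 (25.9% of all genes tested). DESeq2 gave 10 with the kept libraries. Green parenchyma markers were highest in these fiber libraries, and their part was not tested.

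The study contrasted fibers with vessel elements, the supporting and the conducting cells of the wood. At an adjusted p of 0.01 and an absolute log2 fold change above 1, 2 aquaporins were higher in fibers (2.43% of all genes tested) and 5 were lower (3.98%). Of the 5 lower genes 4 averaged at least 100, and these shares were not matched for transcript level. NIP5;1 was higher by 2.76 ± 0.61 (SE, adjusted p = 0.0041) and TIP2;2 by 2.31 ± 0.42 (adjusted p = 0.00082). PIP2;4 had a log2 fold change of -3.55 ± 0.44 (adjusted p = 1.7e-05), TIP2;1 of -1.97 ± 0.29 (adjusted p = 0.00011) and PIP1;3 of -1.79 ± 0.27 (adjusted p = 0.00012), while PIP2;7 and TIP1;1 completed the group. The total was 3 without NST3pro replicate 3, 4 without VND7pro replicate 4 or after background subtraction, and 1 with all 21 libraries.

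In the proximal cambium 4 aquaporins were higher (7.38% of all genes tested were higher) and PIP2;4 was lower (0.723% were lower). The 4 higher genes were all among those averaging at least 100, and these shares were not matched for transcript level. PIP1;5 had a log2 fold change of 1.21 ± 0.15 (SE, adjusted p = 6.8e-06), PIP2;7 of 1.20 ± 0.16 (adjusted p = 1.2e-05), PIP1;3 of 1.04 ± 0.16 (adjusted p = 6.2e-05), TIP1;1 of 0.78 ± 0.15 (adjusted p = 0.0011) and PIP2;4 of -1.26 ± 0.29 (adjusted p = 0.0043). The total of 5 became 3 without replicate 7 or without replicate 8, and 0 with all 21 libraries by edgeR, where 10 had an unadjusted p under 0.05 (20.3% of all genes tested), and 3 after background subtraction. Both cambium sides could be compared only across different lines. PIP1;5 was higher in PXYpro than in SMXL5pro nuclei by 4.14 ± 0.24 (adjusted p = 1.8e-10) on the log2 scale. PIP1;4 was higher by only 1.33 ± 0.26 (adjusted p = 0.00050). PIP1;5 was also low in GFP-negative SMXL5pro nuclei, with a mean of 36.0, against 432 in those of NST3pro and 423 in those of APLpro. Whether the cambium side or the line carries these differences was not tested. In differentiated phloem TIP2;1 was higher, with a log2 fold change of 1.159 ± 0.193 (adjusted p = 0.00062), against 1% of all genes tested. It did not pass without APLpro replicate 13 or with all 21 libraries (3 aquaporins at an unadjusted p of 0.05, against 19.5% of all genes tested). The count in this tissue was 6 after background subtraction and 2 by DESeq2, with RLE size factors, or without APLpro replicate 14, SCRpro replicate 18 or VND7pro replicate 5.

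The sorted populations of 3 lines were compared with each other to ask whether a tissue differs from the rest of the same stems. Every library of each line was used here, including NST3pro replicate 2 and APLpro replicate 15, which the tissue comparison left out. By edgeR at an adjusted p of 0.05, 0 aquaporins differed in the NST3pro, SMXL5pro and APLpro lines, where 0%, 0.0066% and 0.0994% of all genes tested did. At an unadjusted p of 0.05 the counts were 1, 3 and 5, where 5.91%, 6.75% and 9.5% of all genes tested passed, and DESeq2 called 0, 0 and 1 at the adjusted level. The line by population interaction gave 0 aquaporins by edgeR (0.157% of all genes tested), 3 at an unadjusted p of 0.05 (11%) and 0 by DESeq2. Few genes of any kind thus passed within the lines.

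PIP2;6 was the only aquaporin below an unadjusted p of 0.05 in more than one line in the same direction. On the scale of the 18 libraries of the 3 lines it had 93.9, 24.3 and 82.5 normalized read counts in GFP-positive and 222, 169 and 199.7 in GFP-negative nuclei, both sorted from NST3pro:H4-GFP stems. In the APLpro line the values were 83.1, 81.3 and 34.6 against 253, 189 and 155. The lowest GFP-positive values, 24.3 and 34.6, came from NST3pro replicate 2 and APLpro replicate 15. The log2 fold changes of PIP2;6, -1.65 ± 0.64 (SE, adjusted p = 0.81) in the NST3pro and -1.63 ± 0.47 (adjusted p = 0.41) in the APLpro line, did not pass. NIP5;1 showed 45.6, 44.8 and 51.8 in GFP-positive and 17.6, 26.7 and 21.6 in GFP-negative nuclei of the APLpro line, again without passing (log2 fold change 1.04 ± 0.33, adjusted p = 0.47). In the SMXL5pro line PIP1;3 had 37.0, 43.5 and 34.3 against 17.8, 10.8 and 25.5 (log2 fold change 1.03 ± 0.33, adjusted p = 0.61).

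The low level of water channels in the SMXL5pro line extended to its GFP-negative nuclei, which should represent the rest of the stem. PIP2;1 had 58.3, 67.4 and 77.5 normalized read counts in the GFP-negative and 81.8, 101 and 69.9 in the GFP-positive population. In GFP-negative nuclei of the other lines it had 937, 1087 and 1000.0 (NST3pro) and 986, 693 and 505 (APLpro). TIP1;2 likewise had 42.4, 24.8 and 51.1 in GFP-negative SMXL5pro nuclei, against 406 to 945 in those of the other lines. Both genes were therefore about as low in the GFP-negative as in the GFP-positive nuclei of the SMXL5pro line. The aquaporin share of all reads was 0.112% ± 0.0042 (SD, n = 3) in GFP-negative SMXL5pro nuclei, 0.332% ± 0.114 in those of NST3pro and 0.492% ± 0.0934 in those of APLpro.

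A comparison added after these values had been seen set the GFP-negative SMXL5pro nuclei against the GFP-negative nuclei of both other lines. Of 34 aquaporins tested 11 were lower (4.84% of all genes tested were lower) and 2 were higher (5.19% were higher) at an adjusted p of 0.05. PIP1;3 had a log2 fold change of -4.09 ± 0.60 (SE, adjusted p = 0.0017), TIP1;2 of -3.99 ± 0.64 (adjusted p = 0.0025) and PIP2;1 of -3.66 ± 0.55 (adjusted p = 0.0018). Of 10 aquaporins averaging at least 100 in these libraries 9 were lower, against 39.5% of all genes of that level. All 11 lower genes were also among the 15 that were lower in GFP-positive SMXL5pro nuclei against the other tissues. DESeq2 called 21 aquaporins in place of 13, but its share over all genes was not computed for this comparison. The higher genes were NIP5;1, with 1.58 ± 0.33 (adjusted p = 0.0071), and TIP2;3, which had few reads. NIP5;1 counts were 123, 120.0 and 104 in these nuclei, 38.4, 100.4 and 68.7 in the GFP-negative NST3pro ones and 17.6 to 26.7 in those of APLpro. GFP-positive SMXL5pro nuclei had 71.9 to 100.4 on the same scale. The line and the preparation of its nuclei cannot be told apart, and pseudogene reads made up 4.83 to 5.70% of the GFP-negative SMXL5pro libraries, 1.20 to 6.41% of those of NST3pro and 2.00 to 4.10% of those of APLpro. In NST3pro replicate 47, the library with the 6.41% and the fewest reads, PIP2;1 was at 1087, but TIP2;1 was at 22.0 (9 reads), against 151 and 81.6 in the other GFP-negative NST3pro libraries.

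**Figure D5:**
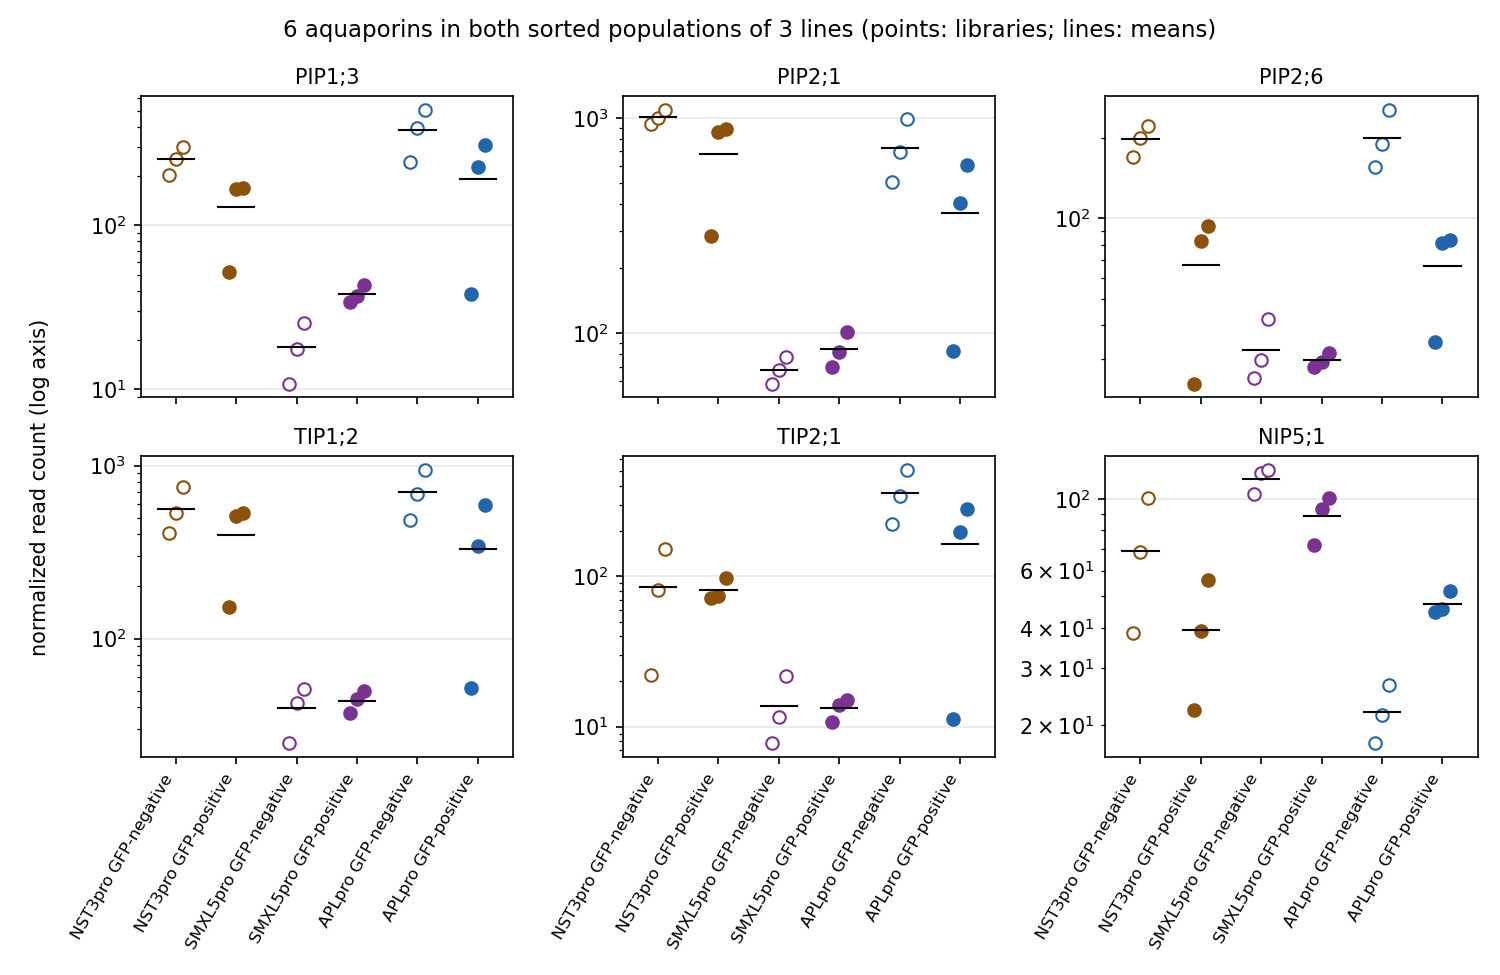
Normalized read counts (log axis) of 6 aquaporins in GFP-negative (open) and GFP-positive (filled) nuclei of the NST3pro, SMXL5pro and APLpro lines, with a point for each library and a line at the mean. For PIP2;1 all 6 libraries of the SMXL5pro line lie between 58.3 and 101, and GFP-negative nuclei of the other lines lie at 505 or more.

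Genes that work beside aquaporins were summarised from lists. Vacuolar proton pumps, which energize the membrane in which TIPs sit, differed among tissues for 4 of 6 genes (26.1% of all genes tested), with 4 lower in SMXL5pro (11.4%), 3 higher in SCRpro (6.36%) and 2 lower in LTP1pro nuclei (6.12%). Counts of this and the following lists were not matched for transcript level, with which the share of genes that differed rose to 98% above. The vacuolar pyrophosphatase gene AVP1 had log2 fold changes of -2.86 ± 0.22 (SE, adjusted p = 5.7e-09), 0.85 ± 0.16 (adjusted p = 0.00089) and -1.42 ± 0.23 (adjusted p = 0.00022) there. Plasma membrane H+-ATPases, which drive transport across the membrane of the PIPs, differed for 6 of 11 genes, against the same 26.1%, and AHA3 was higher in differentiated phloem (1.75 ± 0.23, adjusted p = 7.3e-05) and lower in vessel elements (-1.72 ± 0.33, adjusted p = 0.00055). Of 10 genes for aquaporin regulators and the borate exporter BOR1, 8 differed (26.1% of all genes tested). The syntaxin gene SYP121, whose product helps to deliver PIP2 proteins to the plasma membrane, was lower in SMXL5pro (-2.94 ± 0.22, adjusted p = 4.6e-09) and higher in SCRpro nuclei (0.76 ± 0.17, adjusted p = 0.0031). SYP121 was also higher in VND7pro and PXYpro and lower in APLpro nuclei. BOR1, which passes on the boric acid that NIP5;1 lets in, was lower in LTP1pro (-1.02 ± 0.21, adjusted p = 0.0021). Of 8 potassium channels and transporters 4 differed (26.1% of all genes tested), among them AKT1, which was higher in vessel elements (2.85 ± 0.18, adjusted p = 1.7e-10) and lower in SCRpro nuclei.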

How the data were processed

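Nuclear RNA of 30 libraries was compared. The authors made cDNA by SMART-seq2, used Cutadapt 2.3 on the single-end reads and STAR 2.5.0a with the TAIR10 genome, and retained uniquely aligned reads. The deposited values are raw counts for each Araport11 gene over whole gene bodies, without regard to strand. cDNA preparations had partly been chosen by PCR of the reporter. For 9 libraries a pair of tables held the same counts, with 0 differing genes, and one copy was used. GFP reads, listed beside the genes, stayed out of library sizes.

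Counts were fitted with edgeR 4.0.16 (quasi-likelihood, TMM, filterByExpr) in R 4.3.3, two-sided, with Benjamini-Hochberg adjustment over all genes tested. The 7 tissues were compared with 17 libraries at an adjusted p of 0.01, fibers and vessel elements also at an absolute log2 fold change above 1. Populations within lines were compared with every library of each line at 0.05. The tissue contrasts set one tissue against the mean of the other 6. In the test among tissues, per-library values are given for the 12 genes with the lowest p, and the others by ranges. The GFP-negative comparison across lines was added after values were seen. DESeq2 1.42.0, RLE size factors, no filter, all 21 libraries, background subtraction (pseudogene read density times gene length) and leaving out each library were alternatives. Scripts were tested on simulated counts. Members and lists were chosen with earlier results of these data known. Sequences and gene models are those of RefSeq on TAIR10.1, which differs in name from the build of the counts.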

Additional observations from a re-analysis of the deposited data

How the results depend on the processing

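No paired analysis was possible because the libraries are numbered serially, no groups share a number, and the sources used here do not state which GFP-positive and GFP-negative libraries came from the same preparation. Of 72 differences of single aquaporins between tissues, 0 reversed under any setting and 46 held without any one library. DESeq2 kept 72, no filter 72, RLE size factors 68, background subtraction 49 and all 21 libraries 22. In every setting run on all 7 tissues 19 held, namely PIP2;4 in vessel elements, 8 genes in the starch sheath and 10 in the distal cambium. The 10 also differed, in the same direction, in GFP-negative SMXL5pro nuclei against those of both other lines. No setting could separate tissue from line, since each tissue came from its own line. Of the 17 aquaporins that differed among tissues, 11 did in the 4 tissues with few pseudogene reads and 11 with all 21 libraries after background subtraction. With all 21 libraries, the counts were 0 in NST3pro, 1 in VND7pro, 0 in PXYpro, 0 in APLpro, 8 in SCRpro, 0 in LTP1pro and 1 between NST3pro and VND7pro, and with background subtraction on top they were 0, 1, 0, 0, 9, 1 and 0, and 10 in SMXL5pro. Background subtraction alone gave 7 in VND7pro, 3 in PXYpro, 6 in APLpro, 7 in LTP1pro and 4 between NST3pro and VND7pro. The 4 tissues alone gave 4 in VND7pro and 7 in SCRpro. DESeq2 gave 10 in NST3pro, 2 in APLpro, 1 in the APLpro line and 21 in GFP-negative SMXL5pro nuclei, and RLE size factors gave 2 in APLpro. Shares over all genes were not computed for these counts. The cause of these changes was not tested. Leaving out each library gave 17 to 19 aquaporins among tissues, 2 to 7 in NST3pro, 7 to 12 in VND7pro, 3 to 6 in PXYpro, 15 to 19 in SMXL5pro, 0 to 2 in APLpro, 11 to 15 in SCRpro, 5 to 12 in LTP1pro, 3 to 8 between NST3pro and VND7pro, 11 to 18 in GFP-negative SMXL5pro nuclei, and 0 in each line and the interaction. In groups of 2, the library left then counts as varying like the others. Over all genes, 8527 differed among tissues, 5449 with all 21 libraries, 14063 by DESeq2, 4571 after background subtraction and 3906 in the 4 tissues. RLE size factors moved the median log2 fold change of all genes from 0.36 to 0.58 in SMXL5pro and from 0.33 to 0.52 in LTP1pro.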
